A study of Mus musculus with 8 samples.

Results

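C1q-positive tumour-associated macrophages were examined in B16F10 tumours by single-cell RNA sequencing (scRNA-seq), a method in which the transcripts of 1 droplet share a barcode and each is tagged with its own unique molecular identifier (UMI). Counts of UMIs therefore stand for captured molecules. They were chosen by their own counts. A barcode was kept if it held 200 to 5000 genes and at most 7.5% mitochondrial UMIs. It was counted as melanoma-low if Mlana, Pmel, Dct, Tyr and Tyrp1 together made up under 0.3% of its UMIs. It was taken as a C1q-positive macrophage if it then held at least 3 UMIs of C1qa, C1qb and C1qc together and under 10 UMIs of the fibroblast genes Col1a1, Col1a2, Col3a1 and Dcn. Of 41925 deposited barcodes, 28411 were kept, 2014 were melanoma-low and 321 met the rule, 1.13% of those kept. The collagen limit removed 0 barcodes that met the other limits, and no member held more than 2 UMIs of those genes.

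The study asked what Atf4 in the host does in the tumour microenvironment, and compared 4 Atf4wt/wt with 4 Atf4Δ/Δ mice (written Atf4D/D in the labels), with 1 tumour of 300 mm3 and 1 library per mouse. All mice were C57BL/6, carried the tamoxifen-inducible recombinase Rosa26::CreERT2 and received tamoxifen, and the labels give an age of 12 weeks for each. In Atf4Δ/Δ mice tamoxifen excised floxed Atf4 (Atf4 fl/fl, loxP sites around exons 2 and 3), and in Atf4wt/wt mice no allele was floxed. The recombinase is driven by a ubiquitous promoter, so the deletion reached host cells in general and not macrophages alone. B16F10 is a mouse melanoma line, and the injected cells carried intact Atf4 in both groups. The libraries held 37283598 to 74942137 UMIs, of which 855458 lay in the 321 macrophages.

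Macrophages are phagocytes that settle in tissues from embryonic precursors or from blood monocytes and take up dead cells, lipoproteins and iron. C1q is the recognition molecule of the classical complement pathway, built from the products of C1qa, C1qb and C1qc, and is made largely by macrophages and related myeloid cells rather than by the liver, so that it marks differentiated macrophages against blood monocytes. In tumours such cells are known for phagocytosis, lipid handling and chemokine production. ATF4 is a transcription factor of the integrated stress response, the programme by which cells adjust translation and amino acid supply under stress.

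Several libraries stood apart. Atf4wt/wt replicate 2 gave 6 macrophages with 12538 UMIs. It was therefore left out of the comparisons of expression per tumour between genotypes, which leaves 3 Atf4wt/wt and 4 Atf4Δ/Δ tumours, and its values are given for genes described tumour by tumour. The other tumours gave 31, 40 and 21 macrophages (Atf4wt/wt replicates 1, 3 and 4) and 34, 126, 23 and 40 (Atf4Δ/Δ replicates 1 to 4), so that Atf4Δ/Δ replicate 2 held 39.3% of all members. The sex-linked genes went against the labelled sex in 4 of 4 Atf4wt/wt libraries and 0 of 4 Atf4Δ/Δ libraries. In the melanoma-low barcodes, Xist, the RNA that silences an X chromosome in females, held 189 and 203 UMIs in Atf4wt/wt replicates 1 and 3, which are labelled male and had 0 UMIs of the Y-linked genes Ddx3y, Eif2s3y, Uty and Kdm5d. Atf4wt/wt replicates 2 and 4, labelled female, had 0 UMIs of Xist and 37 and 49 of the Y-linked genes. Since all 4 libraries of the genotype are concerned, no comparison between genotypes could be repeated without them, and the replicate numbers of Atf4wt/wt tumours, used as labelled, may not name the mice that the labels describe. Of the Atf4Δ/Δ tumours, replicate 1 was labelled female, with 382 Xist UMIs in the melanoma-low barcodes. Replicates 2 to 4 were labelled male, with 91, 15 and 180 UMIs of the Y-linked genes. By these genes, Atf4wt/wt replicates 1 and 3 and Atf4Δ/Δ replicate 1 were female. Sex was thus unequal between the genotypes in the comparisons of expression, and its part, taken by these genes, was not tested. No 2 members shared a barcode sequence, and 3 members shared theirs with some barcode of another library.

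The label was checked against markers of each cell type the tumours could hold. All 13 markers of mononuclear phagocytes were found, and their summed level was 8382 ± 1203 counts per 1e+06 UMIs (CPM; SD, n = 7 tumours) against 17.4 in the barcodes that were not melanoma-low, referred to as melanoma-high. Of 8 neutrophil markers, 6 were at 0 UMIs in all members, S100a8 and S100a9 among them, and the rest summed to 20.8 ± 10.0 CPM, led by Csf3r. All 6 mast cell and basophil markers and all 5 erythroid markers were at 0, as were 10 of 11 markers of T and NK cells, Cd3e, Trac and Nkg7 among them. Of 7 B and plasma cell markers, 5 were at 0, and the rest summed to 22.4 ± 18.5 CPM. The 8 monocyte markers were all found and summed to 662 ± 603 CPM, led by F13a1, which resident-type macrophages also transcribe. Dendritic cell markers summed to 42.4 ± 36.0 CPM, with Itgax the most abundant and Flt3, Xcr1, Clec9a and Ccr7 at 0. Endothelial genes summed to 26.5 ± 31.5 CPM and fibroblast genes to 24.1 ± 35.5 CPM, led by Kdr and Col1a2. Melanoma genes were the largest foreign signal. They summed to 1069 ± 341 CPM against 16134 CPM in melanoma-high barcodes. Scaled by the 5 melanoma genes of the rule, melanoma RNA made up an estimated 4.92 to 10.8% of the members' UMIs per tumour, highest in Atf4wt/wt replicate 1, and its part in the results below was not tested.

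**Figure D1:**
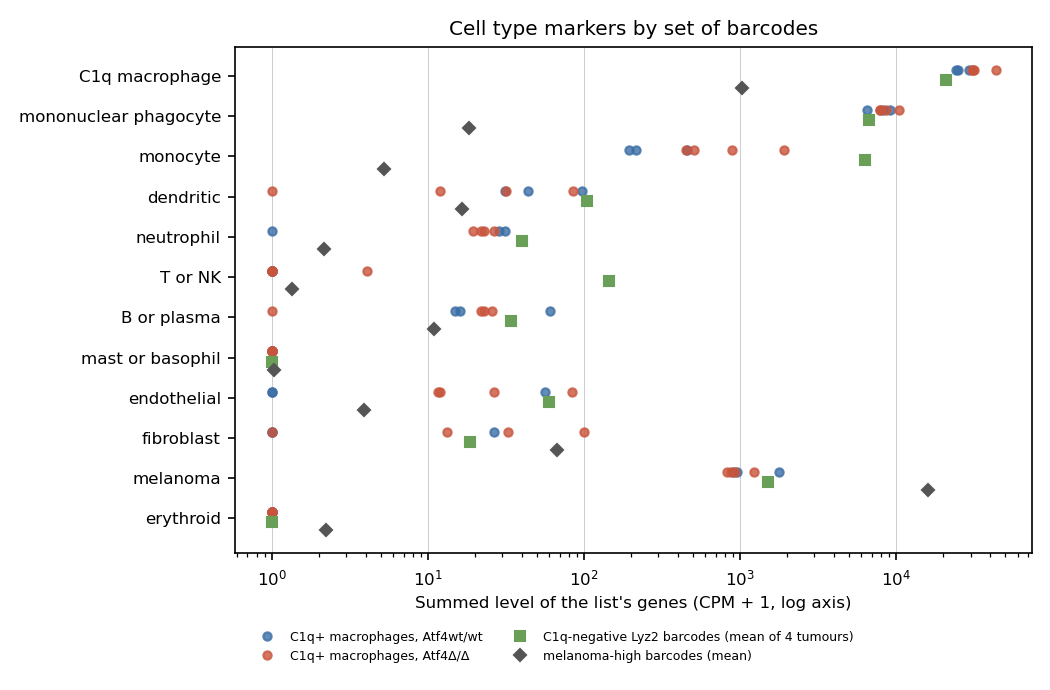
Summed level of each cell type's marker genes (CPM + 1, log axis) in C1q-positive macrophages, where each circle is 1 of 7 tumours coloured by genotype, in C1q-negative Lyz2 barcodes (squares) and in melanoma-high barcodes (diamonds). Phagocyte genes stood at 8382 ± 1203 CPM in the macrophages, and the erythroid and mast cell lists lay at 0 CPM, drawn at 1 on this axis.

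The 3 C1q genes lie side by side on chromosome 4 (GRCm38), with C1qb at chr4:136880129-136886187, C1qc at chr4:136889804-136893065 and C1qa at chr4:136895917-136898803, all on the minus strand. Because they chose the cells, their levels are given as a description. A member held a median of 30 C1q UMIs, 2506 UMIs in all and 1222 genes. C1qb averaged 4246 ± 725 CPM and C1qa 3885 ± 855 CPM (SD, n = 7), against 1.93 and 1.72 CPM in melanoma-high barcodes. Of melanoma-high barcodes, 1.69% held any C1q UMI at a median depth of 9740 UMIs, and 0.193% held 3 or more. The 12 members with exactly 3 C1q UMIs had Lyz2 at 4689 CPM and Tyrobp at 1699 CPM. The 25 barcodes with 2 C1q UMIs, just outside the rule, had them at 7577 and 1634 CPM, so phagocyte genes were found on both sides of it. The 32 barcodes with 1 C1q UMI had them lower, at 1964 and 528 CPM. At the other threshold, the 14 C1q-positive barcodes with 0.3 to 0.4% melanoma UMIs, just outside the rule, had Lyz2 at 7248 CPM. The 38 members with 0.2 to under 0.3% had it at 7091 CPM. Over all 51 C1q-positive barcodes at or above 0.3%, with a median of 6387 UMIs, Lyz2 stood at 2152 CPM.

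The remaining markers were found in every tumour. Lyz2, which encodes lysozyme, stood at 8183, 7906 and 9104 CPM in Atf4wt/wt replicates 1, 3 and 4 (5025 in replicate 2) and at 9417, 11301, 7644 and 13608 CPM in the 4 Atf4Δ/Δ tumours. Apoe, the carrier protein of lipid export, stood at 8460, 7529 and 3161 CPM (6460 in replicate 2) and at 9448, 16029, 11178 and 5483 CPM. Levels of the genotypes overlapped for both genes. Tyrobp, the adaptor of activating receptors, varied least, from 1232 to 1857 CPM over the 8 tumours. Apart from mitochondrial and ribosomal protein genes, the most abundant transcripts were those of the ferritin chains Fth1 (20687 ± 5155 CPM) and Ftl1 (14362 ± 2708 CPM), of thymosin Tmsb4x (17559 ± 1959 CPM) and of Actb, followed by Malat1, Lyz2 and Apoe. The cathepsins Ctsb and Ctsd, proteases of the lysosome, stood at 7026 ± 850 and 4994 ± 605 CPM, against 281 and 599 CPM in melanoma-high barcodes.

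Against C1q-negative myeloid cells the macrophages were set side by side without a test, since C1q defines both sets. These were 202 melanoma-low barcodes with at least 3 Lyz2 UMIs and 0 UMIs of the C1q genes, so that barcodes with 1 or 2 C1q UMIs were in neither set, at a median of 1088 UMIs and 658 genes, and 4 tumours (Atf4wt/wt replicates 1 and 4 and Atf4Δ/Δ replicates 2 and 4) held at least 10 of both kinds, 218 macrophages and 170 C1q-negative barcodes. The 13 markers of mononuclear phagocytes summed to 8270 CPM in macrophages and 6690 CPM in C1q-negative barcodes, and so did not mark the macrophages alone. Of 8 markers of blood monocytes, 7 were lower in the macrophages. The exception was F13a1, at 456 CPM in macrophages and 289 CPM in C1q-negative barcodes and higher in 3 of 4 tumours. Ly6c2, the classical monocyte antigen, averaged 20.8 CPM in macrophages and 617 CPM in C1q-negative barcodes. The chemokine receptor Ccr2, which draws monocytes out of the marrow, averaged 52.7 against 632 CPM. Chil3, Plac8, Vcan, Hp and Il1b, which encodes interleukin 1 beta, were also lower by a ratio of 15.1 or more. These genes were lower in 4 of 4 tumours.

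The 10 resident-type macrophage genes summed to 6012 CPM in macrophages and 1235 CPM in C1q-negative barcodes. Among the genes with the largest ratios, Folr2, a folate receptor, averaged 358 CPM in macrophages against 6.13 CPM, with 2 UMIs in the C1q-negative barcodes. Igf1, a growth factor, averaged 268 CPM from 160 UMIs. On the other side it had 0 UMIs among the 206708 of the C1q-negative barcodes, so no ratio is given. Ms4a7 (1000 against 49.9 CPM), the lipid-binding Fabp4 (289 against 26.1 CPM), the bridging ligand Gas6 (369 against 33.8 CPM, the latter from 2 UMIs), the scavenger receptor Stab1 (501 against 47.6 CPM) and the cholesterol exporter Abca1 (253 against 28.4 CPM) were higher in 4 of 4 tumours as well. Over whole lists, the 20 lysosomal genes summed to 34588 CPM in macrophages and 14357 CPM in C1q-negative barcodes, the lipid genes to 24216 and 9738 CPM and the MHC class II genes to 1936 and 11389 CPM.

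Clustering without the genes of the rule gave 5 clusters, which are described by their leading genes and not tested. Among the lists of gene function, with the marker lists of cell types left aside, the summed level ranged furthest between clusters for MHC class II (5.93 in log2). The cell cycle (2.84) and interferon-stimulated genes (2.42) followed. In cluster 1 (71 cells, median 1582 UMIs) the leading genes were Cd74, H2-Aa, H2-Ab1 and H2-Eb1 of MHC class II together with the interferon-stimulated Rsad2, Ifit1 and Cxcl10, and its C1q count was low, with a median of 13 UMIs. The monocyte gene Chil3 (51.3-fold) and Thbs1 (16.7-fold above the other members), both lower in macrophages than in C1q-negative barcodes, were among its leading genes too, and its monocyte markers summed to 1714 CPM, the highest of the 5 clusters. The cluster was also the shallowest, and per UMI its complement list stood 0.823-fold as high as in all members, against 0.718-fold in cluster 3. MHC class II RNA was concentrated in few cells, as 178 of 321 members held 0 UMIs of the 10 genes and the top 10% of members held 77.8% of them. In cluster 2 (50 cells) the genes of mitosis Ube2c, Cenpf, Mki67, Birc5 and Top2a led, and the 17 cell cycle genes stood 2.59-fold above their level over all members. Cells of this cluster were also deeper, at a median of 3871 UMIs.

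In cluster 3 (62 cells) the leading genes were the elastase Mmp12, the interleukin 1 receptor antagonist Il1rn, and Ndrg1, Ankrd37, Hilpda and Bnip3, genes known to be induced by low oxygen, and its hypoxia and glycolysis list stood 1.66-fold above that of all members. In cluster 4 (42 cells) they were Lyve1, the hyaluronan receptor of vessel-associated macrophages, with Ednrb, Cd5l, F13a1, Fcna and Cbr2, and the resident-type list stood 2.05-fold above. Cluster 5 (96 cells) was led by Rfc4, a subunit of a DNA replication factor, 5.63-fold above the other members from 23 UMIs in the cluster and 10 outside it, with Vcam1 2.13-fold and the chemokine gene Ccl12 1.89-fold above them, and it had the lowest levels of immediate early genes. Up to 61.9% of the cells of a cluster came from 1 tumour, in cluster 4 from Atf4Δ/Δ replicate 2.

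**Figure D2:**
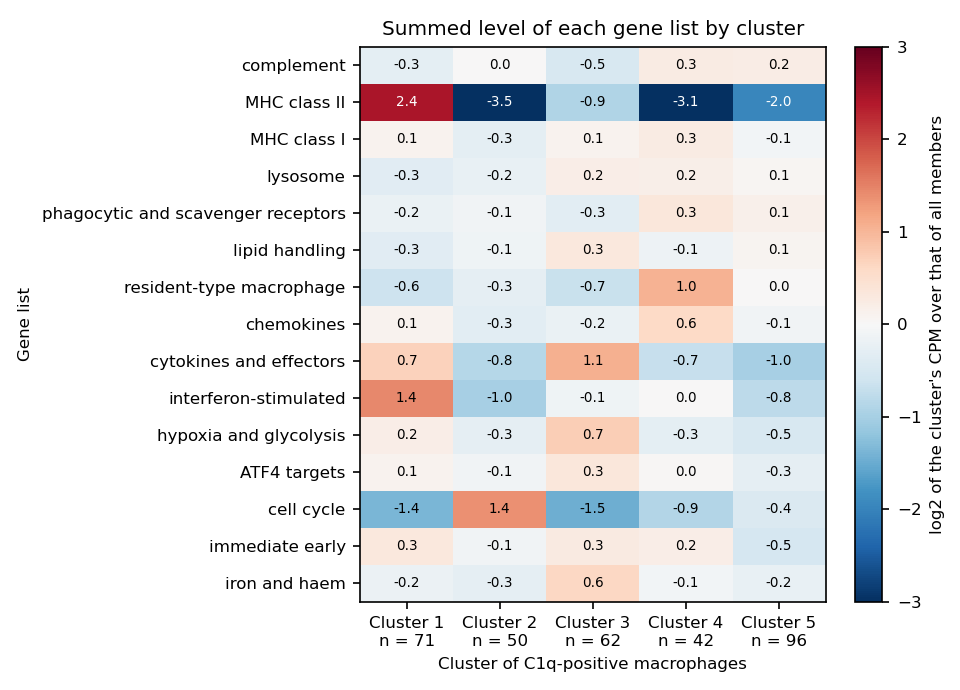
Log2 of the summed CPM of each gene list in each of 5 clusters of C1q-positive macrophages over its CPM in all 321 members, with the number of cells under each cluster. Among the lists shown, MHC class II ranged furthest, from 2.44 in cluster 1 to -3.49 in cluster 2.

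Whether the genotypes differed in the number of macrophages was asked over 3 denominators. Of all kept barcodes, the macrophages made up 0.556, 0.195, 1.48 and 0.616% in Atf4wt/wt replicates 1 to 4 and 1.15, 3.53, 0.620 and 1.17% in Atf4Δ/Δ replicates 1 to 4. The 95% Wilson intervals of the highest value, in Atf4Δ/Δ replicate 2, ran from 2.97 to 4.19%, and those of the lowest from 0.0895 to 0.425%, which covers counting error only. The mean was 0.711% ± 0.543 in Atf4wt/wt and 1.62% ± 1.30 in Atf4Δ/Δ (SD, n = 4 each), and the values overlapped (exact two-sided permutation test over tumours, p = 0.229, adjusted p = 0.4 over 3 shares, smallest p possible 0.0286). Of melanoma-low barcodes they made up 11.5% ± 7.03 and 19.9% ± 13.6 (exact permutation p = 0.4). Of the macrophages and the C1q-negative barcodes together they made up 54.3% ± 29.5 and 72.4% ± 27.9 (exact permutation p = 0.286). None of the 3 differences passed the test. Atf4wt/wt replicates 2 and 4 and Atf4Δ/Δ replicate 4 were low on the last scale (31.6, 26.6 and 31.2%), where 13, 58 and 88 C1q-negative barcodes were found. Without Atf4Δ/Δ replicate 2 the difference over kept barcodes fell from 0.908 to 0.27 percentage points and that over melanoma-low barcodes from 8.36 to 1.91. On the last scale it was 18.1 percentage points, 8.86 without Atf4wt/wt replicate 4, 10.5 without Atf4wt/wt replicate 2, 12.0 without Atf4Δ/Δ replicate 2, 28.4 without Atf4wt/wt replicate 3 and 31.8 without Atf4Δ/Δ replicate 4. With melanoma genes limited to 0.1% of UMIs the differences were 0.596, 12.8 and 8.77 percentage points, and none passed the exact permutation test.

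**Figure D3:**
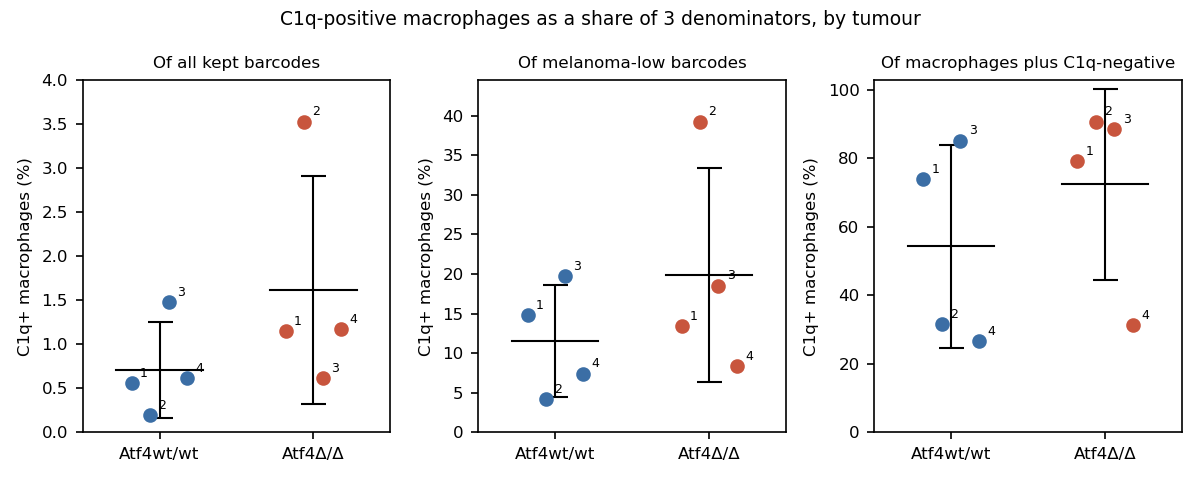
C1q-positive macrophages in each tumour (points, numbered by replicate) as a percentage of kept barcodes, of melanoma-low barcodes and of macrophages plus C1q-negative barcodes, with the mean and SD of 4 tumours per genotype. Genotypes overlapped in all 3 panels, and Atf4Δ/Δ replicate 2 was highest in each (3.53% of kept barcodes).

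Atf4, at chr15:80255184-80257541 (GRCm38, plus strand), averaged less in Atf4Δ/Δ macrophages, by a difference that the tests on macrophages alone did not separate from the spread between tumours. The kit reads the 3′ end of transcripts, and the last of the 3 exons of the main transcript lies in the deleted stretch. Atf4 stood at 249, 258 and 60.8 CPM in Atf4wt/wt replicates 1, 3 and 4 (399 CPM from 5 UMIs in replicate 2) and at 52.7, 49.3, 64.0 and 121 CPM in the 4 Atf4Δ/Δ tumours. Atf4wt/wt replicate 4, with 4 UMIs, lay within the range of Atf4Δ/Δ. In its C1q-negative barcodes 18 Atf4 UMIs were found, and the C1q-negative barcodes of all 8 tumours had 253 CPM in Atf4wt/wt and 36.1 CPM in Atf4Δ/Δ. The means in macrophages were 189 ± 111 CPM (SD, n = 3) and 71.8 ± 33.5 CPM (SD, n = 4), a difference of -1.13 in log2(CPM + 10) that the exact two-sided permutation test did not separate from the spread (p = 0.2, smallest p possible 0.0286). By edgeR's quasi-likelihood test the log2 fold change was -1.57 ± 0.46 (SE), with an adjusted p (Benjamini-Hochberg) of 0.621. Without Atf4wt/wt replicate 4 the difference was -1.76 (exact permutation p = 0.0667, the smallest that 2 against 4 tumours allow). It was -0.83 without Atf4wt/wt replicate 1 and -0.81 without replicate 3 (exact permutation p = 0.267 for each). In all, 37 Atf4 UMIs were found in Atf4Δ/Δ macrophages, of which 13.6 would be expected from the estimated melanoma RNA. In Atf4wt/wt replicates 1, 3 and 4 together there were 52, of which 5.76 would be. The melanoma limit of the rule bounds both estimates from above. In melanoma-high barcodes Atf4 was at 355 ± 66.3 CPM in Atf4wt/wt and 373 ± 64.5 CPM in Atf4Δ/Δ (SD, n = 4 each), with overlapping values.

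**Figure D4:**
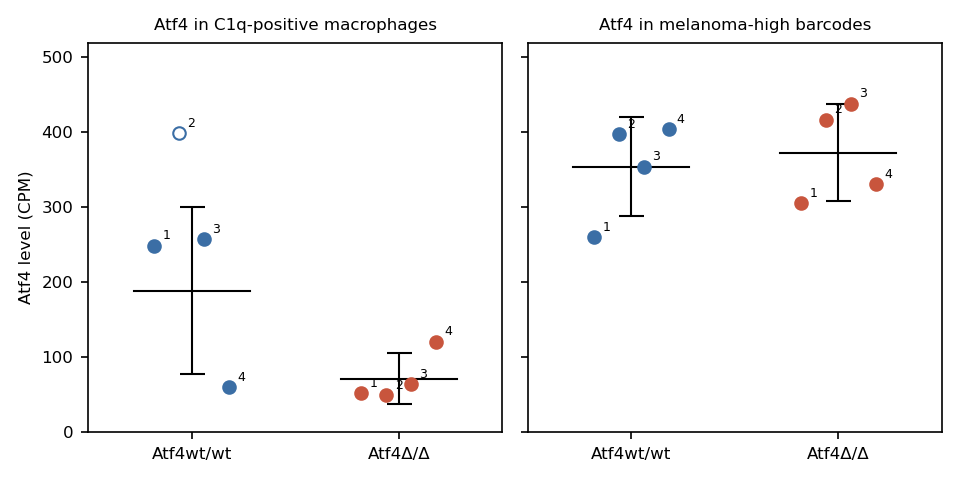
Atf4 level (CPM) per tumour in C1q-positive macrophages and in melanoma-high barcodes, with mean and SD. The open circle is Atf4wt/wt replicate 2 (6 macrophages), which is not in the mean, and Atf4wt/wt replicate 4 (60.8 CPM) lies among the Atf4Δ/Δ tumours.

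Across genes, the genotypes were compared on counts summed per tumour. In such sums a shift between the clusters above and a change within cells cannot be told apart. Of 1554 genes that passed edgeR's expression filter, 0 were called at an adjusted p under 0.05 (0%). At an unadjusted p under 0.05 there were 120, of which 67 were higher in Atf4Δ/Δ (4.31% of genes tested) and 53 lower (3.41%), and DESeq2 called 1, F13a1. Levels of the genotypes did not overlap for 140 genes (9.01%). A positive log2 fold change means higher in Atf4Δ/Δ, and the median over all genes was 0.00.

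F13a1 had the smallest p. It encodes the A subunit of clotting factor XIII and is transcribed in monocytes and in resident-type macrophages. It stood at 125, 120 and 106 CPM in Atf4wt/wt replicates 1, 3 and 4 and at 591, 391, 359 and 1200 CPM in Atf4Δ/Δ, and those 7 tumours did not overlap. The 6 macrophages of Atf4wt/wt replicate 2 had 558 CPM, inside the Atf4Δ/Δ range. The log2 fold change was 2.41 ± 0.45 (SE) with an adjusted p of 0.212 by edgeR's quasi-likelihood test (Benjamini-Hochberg). Over 17 alternatives it lay between 1.95 and 3.30, with adjusted p from 6.36e-12 to 0.819.

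Lyve1, a leading gene of cluster 4 like F13a1, was below the expression filter and is given as a description. Of the 42 cells of that cluster 3 came from Atf4wt/wt and 39 from Atf4Δ/Δ tumours, 26 of them from replicate 2. Over all members the split was 98 and 223. Since both genes took part in the clustering, the count in the cluster was not tested. Lyve1 had 0 UMIs in the 98 Atf4wt/wt macrophages, the 6 of replicate 2 included, and 8, 12, 3 and 59 UMIs in Atf4Δ/Δ replicates 1 to 4, carried by 4, 7, 1 and 9 cells. Pooled over cells this was 139 CPM in Atf4Δ/Δ, at least 12.4-fold higher than a floor of 3 UMIs over the Atf4wt/wt group allows. Without Atf4Δ/Δ replicate 4, which held 59 of the 82 UMIs, the bound was 4.11-fold. In C1q-negative barcodes 0% held a Lyve1 UMI, and of 2400 melanoma-high barcodes examined 0.0417% did, against 6.54% of the macrophages. With each barcode thinned to 500 UMIs the shares were 0, 0 and 2.49%. Among the 7 tested resident-type genes, 7 had a positive log2 fold change, with a median of 0.38, and 3 had an unadjusted p under 0.05 (F13a1, Cbr2 and Folr2). F13a1 is also the most abundant of the 8 monocyte markers, and their part in this count was not tested. They summed to 288 ± 146 CPM in Atf4wt/wt (n = 3) and 942 ± 684 CPM in Atf4Δ/Δ (n = 4), SD in both. Atf4Δ/Δ replicate 4 had 1927 CPM, and Atf4wt/wt replicate 2, which is not in the mean, had 877 CPM. Folr2 stood at 277, 275 and 213 CPM in Atf4wt/wt (160 in replicate 2) and at 548, 468, 256 and 473 CPM in Atf4Δ/Δ, where only replicate 3 lay in the Atf4wt/wt range. Pf4 and Selenop, the most abundant of the list, had log2 fold changes of 0.21 ± 0.17 and 0.37 ± 0.30 (SE), and Timd4, a marker of long-resident macrophages, had 0 UMIs in all members.

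**Figure D5:**
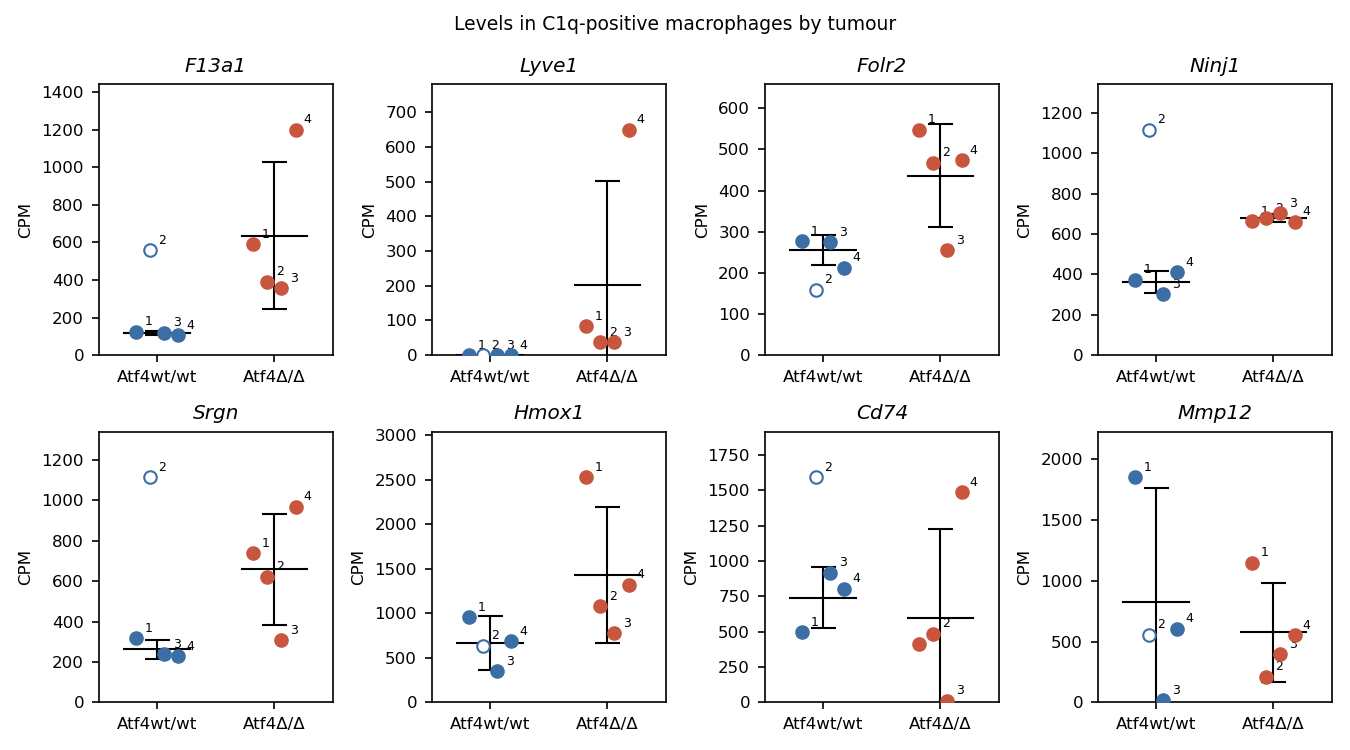
Levels (CPM) of 8 genes per tumour in C1q-positive macrophages, numbered by replicate, with mean and SD of 3 Atf4wt/wt and 4 Atf4Δ/Δ tumours. The open circle is Atf4wt/wt replicate 2 (6 macrophages), which is not in the mean and lies within or above the Atf4Δ/Δ range for F13a1, Ninj1 and Srgn, while Lyve1 was at 0 CPM in all 4 Atf4wt/wt tumours.

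Of the other genes with the smallest p on the higher side, Ninj1, which encodes a membrane protein of plasma membrane rupture, stood at 374, 300.5 and 410 CPM in Atf4wt/wt replicates 1, 3 and 4 and at 664, 678, 704 and 661 CPM in Atf4Δ/Δ. Its log2 fold change was 0.93 ± 0.20 (SE), with an adjusted p of 0.28 by edgeR (Benjamini-Hochberg). Replicate 2 of Atf4wt/wt had 1117 CPM, above all others. Srgn, the proteoglycan of secretory granules, stood at 318, 240 and 228 CPM (1117 in replicate 2) and at 738, 622, 307 and 969 CPM in Atf4Δ/Δ, where replicate 3 overlapped with Atf4wt/wt. Ap3s1, Ftl1-ps1, App, Dusp1, Sf3b6, Atp6ap2 and Klf4 completed the 10, with log2 fold changes from 0.92 to 1.28. Ftl1-ps1 is a copy of the ferritin gene Ftl1 and may share reads with it.

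On the lower side the 10 genes with the smallest p were mt-Nd3, Rpl41, Atf4, Gm42418, Sec62, Selenoh, Nmt1, Mlana, Gars and Nucks1. Gm42418 overlaps ribosomal RNA sequence. It stood at 5982, 9606 and 2113 CPM in Atf4wt/wt replicates 1, 3 and 4 (11884 in replicate 2) and at 2752, 2544, 2497 and 2973 CPM in Atf4Δ/Δ. Atf4wt/wt replicate 4 was the lowest of all, and the other Atf4wt/wt tumours were above every Atf4Δ/Δ tumour. Mlana, a melanoma gene that the rule used, is named by its p but given as a description, and stood at 192 ± 62.4 CPM in Atf4wt/wt (SD, n = 3) and 101 ± 21.6 CPM in Atf4Δ/Δ (SD, n = 4). The estimated share of melanoma RNA, which the rule limited, overlapped between genotypes. It was 10.8, 5.39 and 5.64% in Atf4wt/wt replicates 1, 3 and 4 and 4.92, 6.26, 6.13 and 5.36% in Atf4Δ/Δ. The part of Gm42418 and of melanoma RNA in the other results was not tested.

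In the lists that describe macrophage work, called genes were 0 throughout. Of the complement genes 8 were tested, but 3 of them are the C1q genes that chose the cells. The other 5 had a positive log2 fold change, with a median of 0.34, and 0 had an unadjusted p under 0.05. The receptor of the complement fragment C3a, C3ar1, stood at 398 ± 65.0 CPM in Atf4wt/wt (n = 3) and 511 ± 92.3 CPM in Atf4Δ/Δ (n = 4), SD in both. Of 10 phagocytic and scavenger receptor genes, 8 were positive, and Trem2, the lipid-sensing receptor, was at 922 ± 44.3 and 952 ± 232 CPM (399 in Atf4wt/wt replicate 2). Mrc1, the mannose receptor, was at 795 ± 248 and 1011 ± 153 CPM (877 in that tumour). Fcrls alone in that list had an unadjusted p under 0.05, at a log2 fold change of -0.70 ± 0.30 (SE). All 20 lysosomal genes were tested, 17 were positive and the median was 0.19. Psap, which encodes the precursor of the saposins that help degrade sphingolipids, was the one with an unadjusted p under 0.05, at 3470 ± 398 and 4607 ± 980 CPM.

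Of 13 lipid genes, 10 were positive, and the pair with an unadjusted p under 0.05 pointed opposite ways. Pltp, a phospholipid transfer protein, had a log2 fold change of 0.83 ± 0.32 (SE) and Lpl, lipoprotein lipase, of -0.76 ± 0.31. Spp1, which encodes osteopontin, ranged from 361 CPM in Atf4wt/wt replicate 3 to 3459 CPM in Atf4Δ/Δ replicate 1, and the genotypes overlapped. In the iron and haem list 5 of 6 were positive. Hmox1, haem oxygenase, which breaks haem down and frees its iron, stood at 955, 352 and 684 CPM in Atf4wt/wt (638 in replicate 2) and at 2531, 1081, 781 and 1321 CPM in Atf4Δ/Δ. Only replicate 3 of Atf4Δ/Δ lay in the Atf4wt/wt range, and the log2 fold change was 1.15 ± 0.40 (SE) with an adjusted p of 0.621 (edgeR, Benjamini-Hochberg). Without Atf4Δ/Δ replicate 1 it was 0.71.

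Genes of antigen presentation gave 0 with an unadjusted p under 0.05 in either class. All 6 tested genes of MHC class I were positive, with a median of 0.37. Among the 4 tested genes of class II 1 was positive and the median was -0.15. Cd74, the invariant chain, stood at 498, 919 and 806 CPM in Atf4wt/wt replicates 1, 3 and 4 (1595 in replicate 2) and at 411, 487, 12.8 and 1486 CPM in Atf4Δ/Δ. The Atf4Δ/Δ tumours spanned both the lowest and, among the 7, the highest value, so no difference could be seen over this spread.

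Of 13 tested chemokine genes, 10 had a positive log2 fold change, with a median of 0.41, and 4 had an unadjusted p under 0.05, all with higher values in Atf4Δ/Δ. They were Ccl2 and Ccl7, which draw monocytes, and Ccl3 and Ccl4, which draw monocytes and T cells. Ccl2 stood at 1025, 1356 and 2812 CPM in Atf4wt/wt (5982 in replicate 2) and at 2225, 1885, 3790 and 3611 CPM in Atf4Δ/Δ, and overlapped. Ccl3 stood at 222, 85.8 and 198 CPM (399 in replicate 2) and at 232, 305, 307 and 275 CPM, without overlap among the 7 tumours. The summed level of the list was 11617 ± 3731 and 15771 ± 2367 CPM, and was highest of all, at 24565 CPM, in Atf4wt/wt replicate 2. Of 6 tested cytokine and effector genes, 4 were positive and 0 had an unadjusted p under 0.05. Mmp12 was at 1855, 17.2 and 608 CPM in Atf4wt/wt (558 in replicate 2) and at 1149, 213, 397 and 550.5 CPM in Atf4Δ/Δ. Of 6 interferon-stimulated genes, 6 were positive, and Ifitm3 had an unadjusted p under 0.05, with Atf4Δ/Δ replicate 4 at 1839 CPM and the other 6 tumours between 485 and 804 CPM (1276 CPM in Atf4wt/wt replicate 2).

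Stress programmes were measured by 3 lists. All 14 tested genes of hypoxia and glycolysis had a positive log2 fold change, with a median of 0.54 against 0.00 over all genes, and 4 glycolytic enzymes had an unadjusted p under 0.05 (Aldoa, Tpi1, Pkm and Ldha). Their summed level was 10842, 7829 and 8162 CPM in Atf4wt/wt (12522 in replicate 2) and 15892, 8726, 11895 and 12969 CPM in Atf4Δ/Δ, which overlapped at replicate 2 of Atf4Δ/Δ. Melanoma-high barcodes stood higher, at 21933 CPM. All 10 tested immediate early genes, which respond within minutes to signals and to tissue dissociation, were positive with a median of 0.65, and Dusp1, Junb and Nfkbia had an unadjusted p under 0.05. Summed, they stood at 4196, 3322 and 1474 CPM in Atf4wt/wt (3828 in replicate 2) and at 4608, 4639, 4110 and 6121 CPM in Atf4Δ/Δ, with Atf4wt/wt replicate 4 far below the rest. The median mitochondrial share of the members was 4.89, 5.11 and 4.55% in Atf4wt/wt replicates 1, 3 and 4 and 4.22, 4.23, 4.66 and 4.17% in Atf4Δ/Δ, and its part in these lists was not tested. Of 30 targets of ATF4, 7 could be tested, of which 5 were positive and 2 negative. Gars, a tRNA ligase, had a log2 fold change of -1.01 ± 0.35 (SE) and stood at 152 ± 29.3 and 75.6 ± 22.9 CPM, without overlap among the 7 tumours, and had 0 UMIs in Atf4wt/wt replicate 2. The summed level of the 30 targets was 2562 ± 839 CPM in Atf4wt/wt (SD, n = 3) and 2572 ± 324 CPM in Atf4Δ/Δ (SD, n = 4).

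Cell cycle genes did not lean to 1 side, with 5 of 9 tested positive, 0 at an unadjusted p under 0.05 and summed levels of 2157 ± 688 and 2190 ± 660 CPM. Mki67 stood at 69.2, 318 and 152 CPM in Atf4wt/wt (0 in replicate 2) and at 221, 200, 282 and 154 CPM in Atf4Δ/Δ.

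Whether a genotype difference in the macrophages differed from that in the melanoma-high barcodes of the same tumours was asked by an interaction term. The fit took tumours as blocks and 1 estimate of spread per gene for both kinds of sum. Of 12308 genes, 12 were called (0.0975%; edgeR quasi-likelihood test, Benjamini-Hochberg), 10 with a positive value. A positive value means a higher log2 fold change in macrophages than in melanoma-high barcodes, and a change in either can give it. In macrophage sums alone 1554 genes passed the expression filter, 11 of the 12 among them, so most of the 12308 entered through the deeper melanoma-high sums. The 12 include Rps19bp1, which did not pass the filter in the macrophages alone. They also include the chemokine gene Ccl12, which did not pass it in melanoma-high barcodes alone. Each passed it in only 1 kind of sum, so neither is taken as a tested difference. That shared estimate covered macrophage sums that are far shallower than the melanoma-high sums. For 8 of the 11 called genes that could be tested in macrophages, the SE of the interaction was smaller than that of the macrophage difference alone. When the log2 ratio of both sums was taken in each tumour and tested by limma, which keeps the spread of the tumours' own ratios, 0 of 1554 genes were called (0%) and 110 had an unadjusted p under 0.05. That fit also used fewer genes and another scale, and why the calls were lost was not tested. The 11 genes had the same direction in it, some with smaller values, and 6 of them had an unadjusted p under 0.05. The values that follow are therefore a description of genes that 1 of 2 fits called.

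Atf4 had a log2 difference of fold changes of -1.58 ± 0.38 (SE, edgeR adjusted p = 0.0331), from -1.57 in macrophages and 0.03 in melanoma-high barcodes, and by limma -1.16 ± 0.58 (adjusted p = 0.749). Klf4, a transcription factor of myeloid cells, had 1.90 ± 0.42 (edgeR adjusted p = 0.0114) and by limma 1.90 ± 0.52 (adjusted p = 0.675). It stood at 79.6 ± 43.3 CPM in Atf4wt/wt and 203 ± 75.2 CPM in Atf4Δ/Δ macrophages and at 105 ± 23.6 and 74.3 ± 16.9 CPM in melanoma-high barcodes (SD, n = 3 and 4), with log2 fold changes of 1.27 and -0.53, neither of which passed the adjusted threshold within its set. Ifitm3 had 1.54 ± 0.25 (SE, edgeR adjusted p = 3.90e-06) and by limma a value with an SE of 0.49 (adjusted p = 0.675), at 558 ± 112 and 999 ± 564 CPM in macrophages and 394 ± 103 and 246 ± 75.4 CPM in melanoma-high barcodes. For Psmb8, a subunit of the immunoproteasome, 1.92 ± 0.40 (SE, edgeR adjusted p = 0.00488) fell to 0.66 ± 0.27 by limma (adjusted p = 0.675) and stood beside 258 ± 107 and 274 ± 70.1 CPM in macrophages and 7.18 ± 6.04 and 2.17 ± 1.68 CPM in melanoma-high barcodes.

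The other of the 5 largest values was that of Rps19bp1, at -2.89. It was below the expression filter in the macrophages and entered the edgeR fit only through the deeper melanoma-high sums, so its value is given with no test. It had 4, 16 and 7 UMIs in the macrophages of Atf4wt/wt replicates 1, 3 and 4 (1 in replicate 2) and 0, 6, 1 and 0 in those of Atf4Δ/Δ. The gene lies at chr15:80260615-80264315 (GRCm38, minus strand), 3074 bases beyond the end of Atf4. Melanoma-high sums alone had 0 of 12663 genes called, with 1388 at an unadjusted p under 0.05, and leaving out 1 tumour moved the 12 calls to between 5 (without Atf4wt/wt replicate 4) and 33 (without Atf4wt/wt replicate 1). Against the C1q-negative barcodes, with 2 tumours per genotype, 0 of 1502 genes were called (0%; edgeR), 36 at an unadjusted p under 0.05. DESeq2 was not run on the interactions. Atf4 had a log2 difference of 2.30 ± 1.23 (SE, edgeR adjusted p = 1) there, where the C1q-negative barcodes of the Atf4Δ/Δ tumours in that fit had 0 and 5 UMIs of it.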

How the data were processed

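Per the labels and the study's methods, dissociated tumours were run on a 10x Genomics 3′ kit (V3 in the labels, V2 in the methods) and the authors aligned reads to GRCm38. The submitters' processing notes name Cell Ranger 3.1.0 and Seurat 3.2.1. The deposited values are whole UMI counts for each library, not normalized. No doublet caller was run, so doublets were limited only by the gene and melanoma limits. Members and lists were chosen with earlier results of these data known.

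Counts were summed per tumour and set of barcodes where a tumour had at least 10 of them, and CPM are relative to that sum. Sums were tested with edgeR 4.0.16 in R 4.3.3 (filterByExpr, TMM, quasi-likelihood test, Benjamini-Hochberg threshold of 0.05), tested on simulated data first, with DESeq2 1.42.0 and, for the interaction with melanoma-high barcodes, limma on log2 ratios per tumour (pseudocount of 10 CPM) as alternatives. Shares and Atf4 (pseudocount of 10 CPM) were compared by exact two-sided permutation over tumours (python 3.11.15, scipy 1.17.1). Members were clustered with scanpy 1.11.5 (1000 variable genes, 10 components, resolution 0.6). Member sums held 65793 to 324661 UMIs per tumour, which limits what could be tested. Between 2 replicates of a genotype the chi-square per gene was 2.43 to 4.09, above counting noise. Coordinates are from GENCODE M21. Alternatives were other barcode limits, normalization, filter, test, a sex covariate, a replicate block and leaving out each tumour.

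Genes were named by a rule: Atf4, the markers, the 10 genes with the smallest p per direction, the 5 largest calls per interaction, the 20 most abundant, the 15 most different from C1q-negative barcodes per side, the 10 leading genes of each cluster, and per list the 4 most abundant and those with an unadjusted p under 0.05. Not all of these are printed. The rule does not cover Lyve1 per tumour, Timd4 and Xist, which were picked with their values in view.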

Additional observations from a re-analysis of the deposited data

Results flagged for a closer look

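Among 25 groups of 4 tumours examined for a value far from the others, 3 had one. Chance gives about 1 in 20, but these genes were not drawn at random, so the count is a description and not a test. C1qa, which the rule used to choose the cells, was in the macrophages of Atf4Δ/Δ replicate 2 at 5458 CPM, beside the other Atf4Δ/Δ tumours at 3600 to 3775 CPM. Lyve1 in Atf4Δ/Δ replicate 4 was at 650 CPM, above the others at 37.0 to 84.4 CPM. Xist was at 696 CPM in Atf4Δ/Δ replicate 1, the female of that genotype by its label, and at 0 CPM in the others.

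For the difference between genotype effects in macrophages and in melanoma-high barcodes, edgeR's interaction test (Benjamini-Hochberg) called 12 genes. That test shares 1 spread per gene between both kinds of sum, and limma on the ratios of each tumour called 0 genes. Of the 12, Rps19bp1 and Ccl12 each passed the expression filter in only 1 kind of sum and are not taken as tested differences. The log2 differences by edgeR were 1.92 for Psmb8 (0.66 by limma), 1.90 for Klf4, -1.58 for Atf4 and 1.54 for Ifitm3. Rps19bp1 had -2.89, from 0 to 16 UMIs per tumour in macrophages. In the macrophages alone none of Psmb8, Klf4, Atf4 and Ifitm3 passed the adjusted threshold, and Rps19bp1 was below the expression filter there.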

How the results depend on the processing

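The number of genes called between genotypes in macrophages was 0, and became 18 (15 higher, 3 lower) with all genes of at least 1 count, 1 with melanoma genes under 0.1% of UMIs and 1 with DESeq2. It was 0 to 1 when leaving out each tumour, the 1 being Gm42418 without Atf4wt/wt replicate 4. It stayed at 0 with the sex of the labels as a covariate, which rests on labels that the sex-linked genes went against in every Atf4wt/wt tumour. It also stayed at 0 with the 6-member tumour, a setting chosen after seeing the data. The interaction with melanoma-high barcodes had 12 calls, 21 with a mitochondrial limit of 15%, 0 by limma on log2 ratios per tumour over genes that passed the filter in macrophages, a setting chosen after seeing the data, and 5 to 33 when leaving out each tumour. The interaction with C1q-negative barcodes had 0, and 0 to 3 when leaving out each tumour, where the lone tumour of a genotype is assumed to vary like the others. The causes were not tested. All 39 alternatives for the 3 shares kept the direction, and none passed the threshold, which the 3 with a replicate block could not, as the smallest p of 4 pairs is 0.125. When leaving out each tumour the share of kept barcodes differed by 0.27 to 1.24 percentage points, and Atf4 by -1.76 to -0.81 log2 units. With the 6-member tumour, Atf4 differed by -1.45 (exact permutation p = 0.0857). For 28 named genes, 470 of 470 alternative fits kept the direction, and 10 passed the threshold where the main test had not. Pairing by replicate number was not taken, as deviations of same-numbered tumours correlated at 0.23, -0.03 and 0.01. With the replicate block 0 genes were called, the shares had exact sign-flip p of 0.5, 0.875 and 0.125, and Atf4 one of 0.5 (smallest possible 0.25 with 3 pairs). Member sums of 65793 to 324661 UMIs limited the test to 1554 genes.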
